A study of Mus musculus with 10 samples.

Results

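The NF-kB genes described here are the 5 subunit genes Nfkb1, Nfkb2, Rel, Rela and Relb and the 5 inhibitor genes Nfkbia, Nfkbib, Nfkbie, Nfkbid and Nfkbiz. They were chosen by name, as the family of transcription factors and the ankyrin-repeat proteins that bind them, and are 10 of the 55421 genes in the count table. All 10 were among the 16596 genes tested. RNA was sequenced from germinal center B cells of mouse spleen, taken 10 days after immunization from C57BL/6 mice aged 8 to 10 weeks. The cells were enriched on magnetic beads for the lectin PNA, which binds germinal center B cells. There were 4 groups, made of a genotype, labelled HOMO (Pbrm1-/-) or WT (Pbrm1+/+), and a fraction, labelled CC or CB. They held 2 HOMO CC, 3 WT CC, 2 HOMO CB and 3 WT CB libraries. The labels spell out neither CB nor CC, nor in which cells Pbrm1 was deleted, and the column names of the count table also carry "AID", which no label explains. The immunization was common to all groups. Within a group, values are given in the order of the library numbers, which are 2 and 3 for HOMO and 1, 2 and 3 for WT. Since no label says that the libraries of a group are from separate animals, the tests see only library-to-library spread, part of which may be technical.

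NF-kB proteins act as pairs of subunits. In resting cells classical inhibitors hold them in the cytoplasm, and signals from CD40, the B cell receptor or Toll-like receptors lead to destruction of the inhibitor and entry of the pair into the nucleus. The classical route chiefly frees pairs that contain the products of Rela, Rel and Nfkb1, while the alternative route processes the Nfkb2 precursor so that it can act with the product of Relb. Several inhibitor and subunit genes are themselves NF-kB targets. In germinal centers, B cells of the light zone receive CD40 help from T cells, and Rel and Rela are known for roles in keeping the reaction going and in plasma cell formation.

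The sequence that NF-kB binds, the kappa B site, was looked for by its consensus of 10 bases on both strands in the 250 bases before each start site of RefSeq (GRCm38.p6), because several of these genes moved together between fractions. Windows were found for 7 of the 10 genes (Nfkb2, Rel, Rela, Nfkbia, Nfkbib, Nfkbie and Nfkbid), and those of 5 held at least 1 match. The genes without a window were Nfkb1, Relb and Nfkbiz. Of all 27025 genes with a window, 8.23% held a match in at least 1 of their windows, and Nfkb2 and Nfkbid have 3 windows each. A match describes the letters only and is not a measured binding site. Stretches of 30 bases are shown for 5 genes, read along the gene, with the match in capitals. The window of the second listed start of Nfkb2 held 1 match as well, which is not shown.
Nfkb2, first listed start, plus strand, chr19:46304688-46304717: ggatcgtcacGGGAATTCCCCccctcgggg
Nfkb2, first listed start, plus strand, chr19:46304707-46304736: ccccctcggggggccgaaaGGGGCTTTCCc
Nfkb2, the third listed start, plus strand, chr19:46305695-46305724: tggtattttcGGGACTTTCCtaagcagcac
Rel, minus strand, chr11:23771042-23771071: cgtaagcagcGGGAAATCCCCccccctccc
Nfkbia, minus strand, chr12:55492657-55492686: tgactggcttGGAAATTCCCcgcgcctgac
Nfkbie, plus strand, chr17:45555584-45555613: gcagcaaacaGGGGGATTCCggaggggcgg
Nfkbid, second listed start, plus strand, chr7:30422170-30422199: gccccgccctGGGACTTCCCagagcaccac
Nfkbid, second listed start, plus strand, chr7:30422215-30422244: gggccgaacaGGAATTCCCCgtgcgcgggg
Capitals that run over 11 bases hold overlapping matches. In Nfkbia the match lay 29 to 20 bases before the start, and in Nfkbie 106 to 97 bases before it. No match to the consensus was found in the windows of Rela and Nfkbib. The whole window of Nfkbia, the inhibitor with the highest level per length in CC, is shown to place its match.
Nfkbia, minus strand, chr12:55492648-55492897: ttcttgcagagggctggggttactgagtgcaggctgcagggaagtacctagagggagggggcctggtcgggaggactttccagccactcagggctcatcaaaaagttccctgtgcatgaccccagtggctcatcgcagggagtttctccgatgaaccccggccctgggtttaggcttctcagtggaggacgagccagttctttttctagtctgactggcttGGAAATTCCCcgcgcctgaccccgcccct

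Levels are depth-scaled read counts (CPM) after TMM scaling, which corrects for differences in library make-up, and library totals lay between 9954006 and 67625110 reads. Pbrm1, the gene of a subunit of the PBAF chromatin remodelling complex, had 152 and 150 CPM in HOMO CC libraries, against 239, 239 and 250 CPM in WT CC libraries. In CB it had 178 and 164 CPM in HOMO libraries, against 319, 309 and 312 CPM in WT libraries. It was lower in every HOMO library but far from 0, with a log2 change of -0.68 in CC (adjusted p = 0.0564, edgeR) and -0.88 in CB (adjusted p = 0.00954, edgeR). The table gives 1 count per gene, so a deleted part of it cannot be seen. All 9 germinal center B cell markers reached 1 CPM in every library, and the T cell list summed to at most 9.69 CPM. The light zone list summed to 787 to 881 CPM in CC and to 354 to 409 CPM in CB, and 4 of its 6 genes are also in the NF-kB target list below. Macrophage markers summed to 21.1 and 27.0 CPM in HOMO CC, against 717, 172 and 41.6 CPM in WT CC, with none of the 10 at 0 in all libraries, and to 10.3 and 11.9 CPM in HOMO CB, against 20.01, 11.7 and 18.7 CPM in WT CB. Neutrophil markers summed to 97.5 and 122 CPM in the HOMO libraries numbered 2 and to at most 12.8 CPM in the others, with Ly6g, Elane and Mpo under 1 CPM everywhere. WT number 3 stood apart from WT numbers 1 and 2 in both fractions, also in how its levels related to the GC content of genes. Spearman's rho of a library's deviation with GC content across 8633 genes was -0.174 and -0.224 in HOMO CC, 0.430, 0.551 and 0.151 in WT CC, -0.632 and -0.605 in HOMO CB and 0.152, 0.251 and -0.458 in WT CB.

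**Figure D1:**
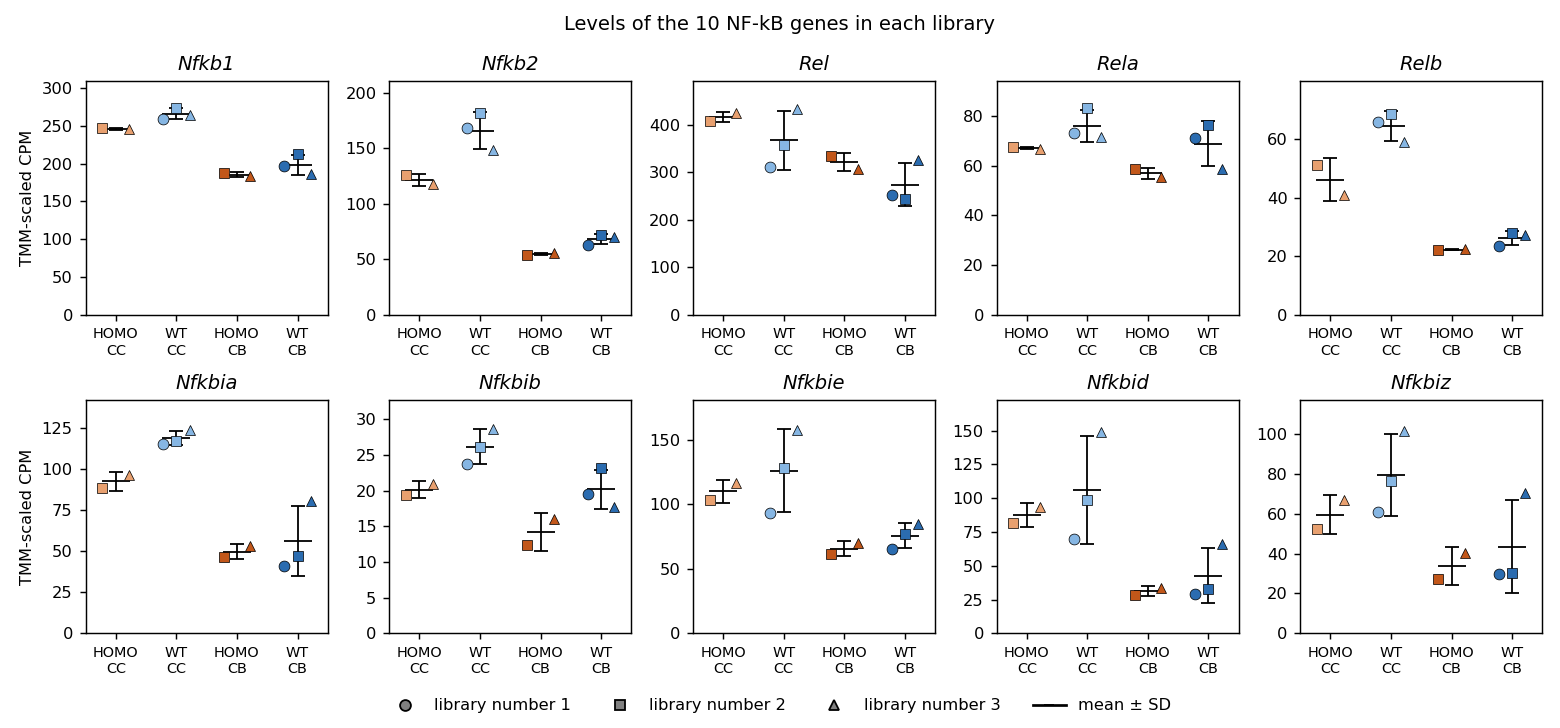
TMM-scaled CPM (vertical axes, from 0) of each gene in each library of the 4 groups, with marker shapes for library numbers and black bars for the mean and SD. Nfkb2 and Relb stand higher in every CC library than in every CB library, while Nfkbid and Nfkbiz spread most among WT libraries relative to their means, with number 3 on top.

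Per kilobase of gene length, Rel and Nfkbia led the family in all groups. Rel, the subunit best known from lymphocytes, averaged 55.7 ± 1.43 CPM per kb in HOMO CC (SD, n = 2), 49.1 ± 8.21 in WT CC (n = 3), 43.0 ± 2.54 in HOMO CB (n = 2) and 36.7 ± 6.14 in WT CB (n = 3). Nfkbia, which encodes the inhibitor IkB alpha, averaged 57.5 ± 3.56 CPM per kb in HOMO CC, 73.8 ± 2.68 in WT CC, 30.9 ± 2.99 in HOMO CB and 34.9 ± 13.2 in WT CB (SD, same n). Nfkbia ranked above Rel without overlap of libraries only in WT CC, Rel ranked above Nfkbia without overlap only in HOMO CB, and in the other groups the 2 genes overlapped. Relb, Nfkbiz and Nfkbib took the lowest 3 places in every group. Relb averaged 11.9 CPM per kb in HOMO CC, 16.6 in WT CC, 5.73 in HOMO CB and 6.75 in WT CB, and Nfkbib 9.29, 12.1, 6.55 and 9.30 in the same groups. In WT CB every neighbouring pair in the order overlapped except Nfkb2 and Nfkbib. Nfkb2 ranked above Nfkb1 in CC and below it in CB, in both genotypes.

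**Figure D2:**
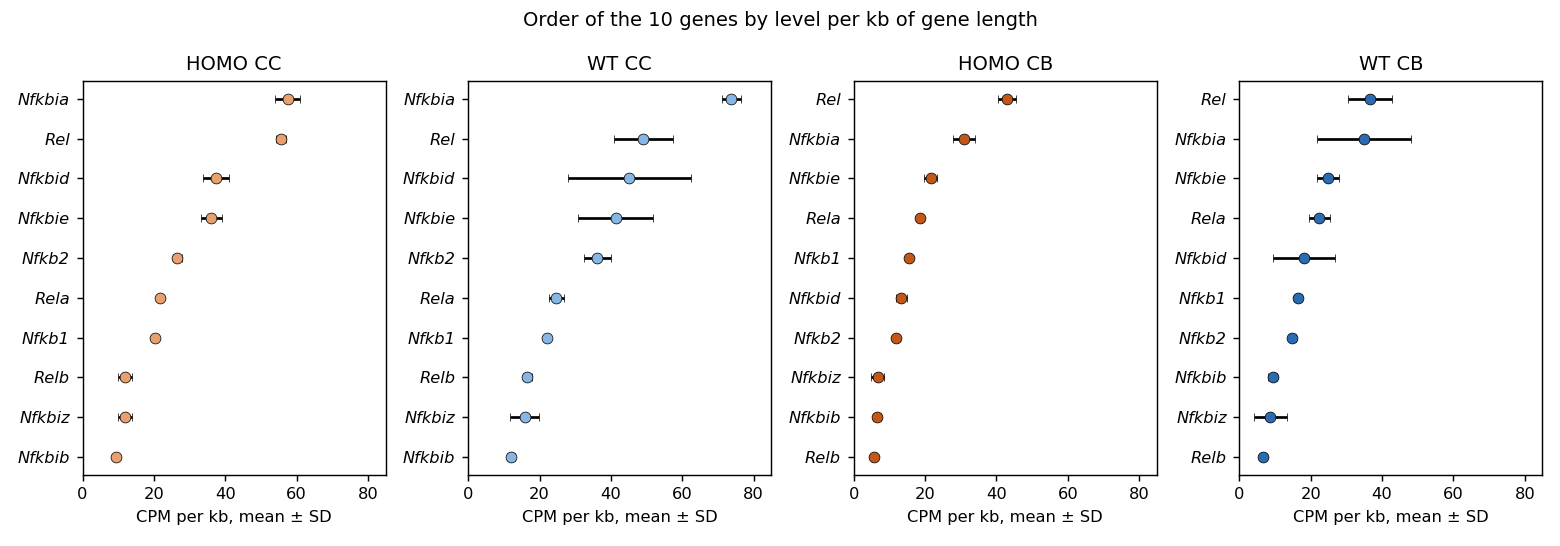
Mean level per kb of gene length (horizontal axis, CPM per kb) of the 10 genes in each group, ordered from the highest at the top, with bars for the SD over 2 or 3 libraries. Nfkbia and Rel head all 4 panels, and Nfkb2 stands above Nfkb1 in both CC panels and below it in both CB panels.

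The comparison of CC with CB asks how the family differs between the 2 fractions. In WT, 7 of the 10 genes rose in CC and none fell, where 11.6% of all genes tested rose and 12.3% fell. The genes were Nfkb2, Relb, Nfkb1 and Rel among subunits and Nfkbia, Nfkbie and Nfkbid among inhibitors. In HOMO, 3 of the 10 rose (Nfkb2, Relb and Nfkb1) and none fell, where 2.46% of all genes rose and 2.98% fell. The median log2 change of the 10 genes was 0.78 in HOMO and 0.80 in WT, beside medians of -0.010 and 0.0097 over all genes tested. In these bulk libraries fewer cells of a type and less RNA per cell cannot be told apart.

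Among precursor subunits, Nfkb2 had 126 and 118 CPM in HOMO CC libraries, against 53.8 and 55.5 CPM in HOMO CB libraries. It had 168, 182 and 148 CPM in WT CC libraries, against 63.0, 71.5 and 69.7 CPM in WT CB libraries. Each CC library stood above each CB library, whichever the genotype. The rise was 2.23-fold in HOMO (log2 1.15, SE 0.12, adjusted p = 0.000472, edgeR) and 2.44-fold in WT (log2 1.29, SE 0.099, adjusted p = 2.43e-05, edgeR). Within the WT numbers 1, 2 and 3 the log2 change was 1.42, 1.35 and 1.09. Nfkb1, the precursor of the classical route, had 247 and 245 CPM in HOMO CC, against 188 and 183 CPM in HOMO CB. In WT it had 260, 274 and 265 CPM in CC, against 197, 212 and 186 CPM in CB. Its libraries also did not overlap between fractions, and its rise was smaller, 1.33-fold in HOMO (log2 0.41, SE 0.099, adjusted p = 0.0360, edgeR) and 1.34-fold in WT (log2 0.42, SE 0.080, adjusted p = 0.00403, edgeR). In HOMO the call for Nfkb1 was lost when any 1 of the 4 HOMO libraries or WT CB number 1 was left out (adjusted p 0.0724 to 0.294).

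Of the subunits that carry their own activation domain, Relb, the partner of the Nfkb2 product, had the pattern most like that of Nfkb2. It had 51.3 and 41.0 CPM in HOMO CC, against 22.3 and 22.3 CPM in HOMO CB. The WT levels were 65.8, 68.6 and 58.9 CPM in CC, against 23.5, 27.8 and 27.4 CPM in CB. The fractions did not overlap, and Relb rose 2.07-fold in HOMO (log2 1.05, SE 0.14, adjusted p = 0.00186, edgeR) and 2.46-fold in WT (log2 1.30, SE 0.12, adjusted p = 5.59e-05, edgeR). Rel had 408 and 423 CPM in HOMO CC, against 334 and 308 CPM in HOMO CB. Levels in WT were 311, 357 and 432 CPM in CC, against 252, 243 and 326 CPM in CB. The WT fractions overlapped through WT CB number 3, yet within each WT number Rel was higher in CC, by a log2 of 0.30, 0.56 and 0.40. Rel rose in WT (log2 0.42, SE 0.14, adjusted p = 0.0469, edgeR), a call that was lost without any 1 of 8 libraries (adjusted p 0.0792 to 0.166), and its log2 change of 0.37 in HOMO did not pass (SE 0.17, adjusted p = 0.255, edgeR). With the WT number as a fixed replicate block the value for Rel in HOMO passed, at an adjusted p of 0.0129 (edgeR). With the number as a random block that value did not pass, at 0.217 (limma-voom). Both blocks pair WT libraries only, and the HOMO libraries stayed unpaired. In HOMO the fixed block left the log2 change of Rel at 0.37 and acted through the shared estimate of the spread. Rela, the main subunit of the classical route, differed least. It had 67.4 and 66.7 CPM in HOMO CC, against 58.4 and 55.3 CPM in HOMO CB, and 73.1, 83.2 and 71.5 CPM in WT CC, against 71.1, 76.4 and 58.7 CPM in WT CB. Its log2 change was 0.24 in HOMO (95% interval -0.06 to 0.54) and 0.15 in WT (95% interval -0.10 to 0.39), and neither passed.

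The inhibitors differed in how far the fractions stood apart and in how widely the WT libraries spread. Nfkbia had 88.5 and 96.6 CPM in HOMO CC, against 46.4 and 53.2 CPM in HOMO CB. In WT it had 116, 117 and 124 CPM in CC, against 41.1, 47.0 and 80.5 CPM in CB. All CC libraries stood above all CB libraries, and WT CB number 3 was the highest CB library. Nfkbia rose in WT (log2 1.07, SE 0.21, adjusted p = 0.00483, edgeR), and its log2 change of 0.89 in HOMO did not pass (SE 0.25, adjusted p = 0.0713, edgeR). Nfkbie, the gene of IkB epsilon, had 104 and 116 CPM in HOMO CC, against 61.4 and 69.7 CPM in HOMO CB. Among WT libraries it had 93.4, 128 and 157 CPM in CC, against 65.6, 76.7 and 84.7 CPM in CB. Its fractions did not overlap either. It rose in WT (log2 0.73, SE 0.17, adjusted p = 0.0101, edgeR) and had a log2 change of 0.74 in HOMO, which did not pass (SE 0.21, adjusted p = 0.0619, edgeR). The fixed replicate block pairs WT libraries only. With it both inhibitors passed in HOMO, at adjusted p-values of 0.0168 for Nfkbia and 0.00129 for Nfkbie (edgeR). With the random block neither did, at 0.0780 and 0.0597 (limma-voom), nor did Nfkbia with the fixed block and the GC correction (0.0552). Nfkbib, the gene of IkB beta, had 19.3 and 21.0 CPM in HOMO CC, against 12.3 and 16.1 CPM in HOMO CB. The WT levels were 23.7, 26.1 and 28.6 CPM in CC, against 19.6, 23.2 and 17.7 CPM in CB. Its log2 change was 0.50 in HOMO (adjusted p = 0.147, edgeR) and 0.38 in WT (adjusted p = 0.0823, edgeR, and 0.0438 with the fixed replicate block).

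Nfkbid and Nfkbiz encode nuclear members of the inhibitor family that modify transcription by NF-kB. Nfkbid had 81.4 and 93.6 CPM in HOMO CC, against 28.6 and 33.8 CPM in HOMO CB. In WT it had 69.7, 98.9 and 149 CPM in CC, against 29.0, 32.8 and 66.2 CPM in CB. WT CB number 3 came close to the lowest WT CC library, without reaching it. Nfkbid rose in WT (log2 1.30, SE 0.35, adjusted p = 0.0274, edgeR), a call lost without any 1 of 6 libraries (adjusted p 0.0551 to 0.113). Its log2 change in HOMO was 1.48 (SE 0.43, adjusted p = 0.0905, edgeR). With the fixed replicate block, which pairs WT libraries only, the adjusted p in HOMO was 5.06e-05 (edgeR). Nfkbiz had 52.5 and 66.6 CPM in HOMO CC, against 27.1 and 40.3 CPM in HOMO CB. Levels in WT were 60.9, 76.1 and 101 CPM in CC, against 29.5, 30.1 and 70.3 CPM in CB. The WT fractions overlapped, since WT CB number 3 exceeded WT CC number 1. Its log2 change was 0.81 in HOMO (95% interval -0.18 to 1.81, adjusted p = 0.371, edgeR) and 0.86 in WT (adjusted p = 0.113, edgeR, and 0.0101 with the fixed replicate block). Counted by libraries that did not overlap between fractions, all 10 genes were higher in HOMO CC than in HOMO CB, where 28.8% of all genes were. In WT 7 of 10 were, where 16.5% of all genes were.

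The macrophage list was highest in WT CC number 1. Without both libraries of WT number 1 the log2 change in WT was 1.23 for Nfkb2 (adjusted p = 0.00224, edgeR) and 1.21 for Relb (adjusted p = 0.00352, edgeR). Nfkb1 (log2 0.44, adjusted p = 0.0544, edgeR) and Rel (log2 0.47, adjusted p = 0.117, edgeR) then no longer passed, and 6.32% of all genes did. Without both libraries of WT number 2 only Nfkb2, Relb and Nfkb1 passed in WT, where 7.62% of all genes did. A correction for GC content left a log2 change of 1.00 in HOMO and 1.13 in WT for Nfkb2, and of 0.94 in HOMO and 1.18 in WT for Relb, and with it Nfkbid no longer passed in WT (log2 1.16, adjusted p = 0.100, edgeR). Other lists moved with the same contrast, in both directions. The light zone sums are given above, and the naive or memory B cell list summed to 392 to 452 CPM in CC and to 186 to 221 CPM in CB. Lower in CC was the germinal center B cell list, at 1924 to 2228 CPM, against 2751 to 3513 CPM in CB. So were the dark zone list (585 to 699 CPM, against 1411 to 1770 CPM) and the plasma cell list (341 to 527 CPM, against 927 to 1074 CPM). The follicular dendritic or stromal cell list summed to 614 to 883 CPM in CC and to 334 to 484 CPM in CB. Pdpn was at 0 and Cxcl13 and Col1a1 were under 1 CPM in every library. Only 2 of the 6 listed genes reached 1 CPM in every library, so the sum is no measure of such cells. Within each fraction the HOMO sums exceeded every WT sum. The part of these lists in the NF-kB values was not tested.

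**Figure D3:**
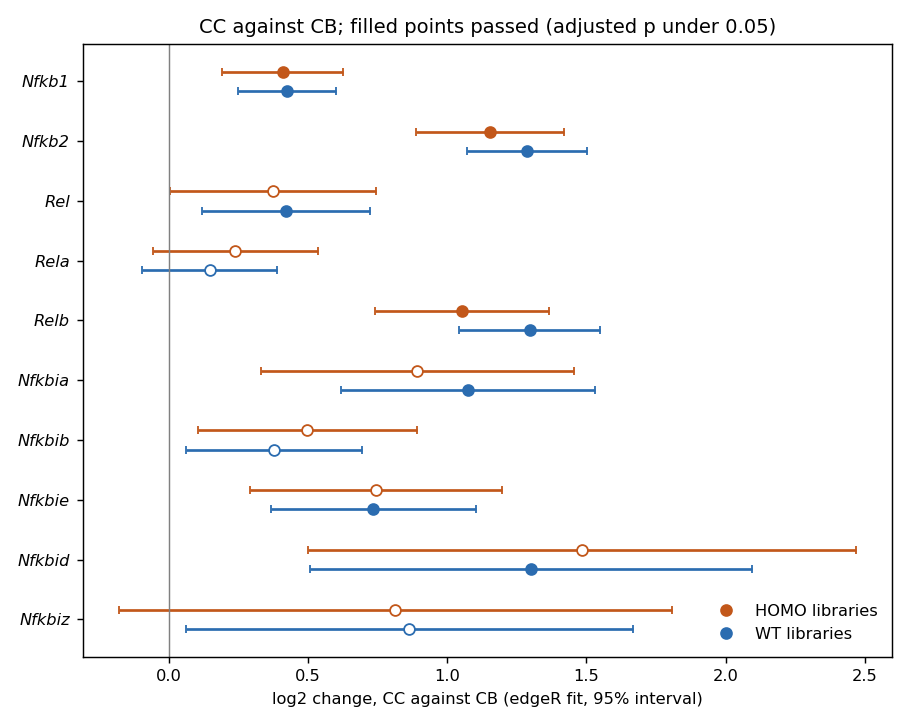
Log2 change of CC against CB (horizontal axis) with its 95% interval for each gene, HOMO above WT, with filled points where the adjusted p passed 0.05. All 20 estimates lie above 0, from 0.15 for Rela in WT to 1.48 for Nfkbid in HOMO.

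The balance within the family differed between fractions. Per kilobase, the ratio of Nfkb2 to Nfkb1 was 1.34 and 1.26 in HOMO CC, against 0.754 and 0.798 in HOMO CB. In WT it was 1.70, 1.75 and 1.47 in CC, against 0.843, 0.886 and 0.987 in CB. All CC libraries were above 1 and all CB libraries below it, and within each fraction both HOMO libraries were below the 3 WT libraries. The summed level of the 5 inhibitor genes over that of the 5 subunit genes was 1.04 and 1.19 in HOMO CC, against 0.746 and 0.930 in HOMO CB. In WT it was 1.10, 1.19 and 1.497 in CC, against 0.800, 0.870 and 1.28 in CB. WT number 3 had the highest value of each fraction, and its CB library exceeded 2 of the 3 WT CC libraries. These ratios were given no test and no correction for GC content, which is 59.4% for Nfkb2 and 44.9% for Nfkb1. With such a correction the log2 change of HOMO against WT was -0.18 for Nfkb2 and -0.23 for Nfkb1 in CC, and -0.05 and -0.18 in CB, so the lower ratio in HOMO was not kept.

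**Figure D4:**
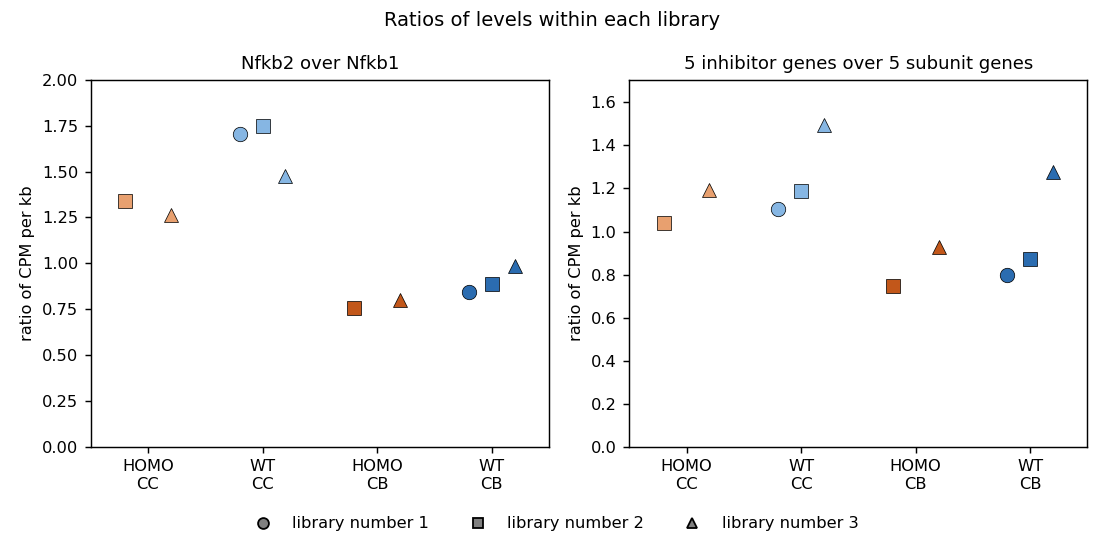
Ratio of levels per kb (vertical axes, from 0) of Nfkb2 to Nfkb1 and of the 5 inhibitor genes to the 5 subunit genes in each library of the 4 groups, with marker shapes for library numbers. The Nfkb2 ratio lies between 1.26 and 1.75 in CC and between 0.754 and 0.987 in CB, while the inhibitor ratio overlaps between fractions in WT.

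The comparison of HOMO with WT asks what the family does when Pbrm1 is deleted. None of the 10 genes passed in CC, where 0% of all genes passed, and none in CB, where 0.0241% did (edgeR). At an unadjusted p under 0.05 there were 3 genes in CC, Nfkb2, Relb and Nfkbib, and 3 in CB, Nfkb2, Rela and Nfkbib, all lower in HOMO, while 18.9% of all genes were under that limit in CC and 12.5% in CB. DESeq2 called 2 in CC, Nfkb2 (adjusted p = 0.0087) and Relb (adjusted p = 0.0286), beside 4.92% of all genes, and 0 in CB, beside 1.67%, and limma-voom with the random replicate block called 0 in both. The estimate was below 0 for 9 of 10 genes in each fraction, beside 52.9% of all genes in CC and 54.3% in CB. The median was -0.32 in CC and -0.25 in CB, beside -0.031 and -0.039 over all genes. These comparisons share their libraries with the comparisons of CC with CB.

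By library, the HOMO levels of Nfkb2 were below all WT levels in both fractions, with a log2 change of -0.45 in CC (SE 0.11, adjusted p = 0.123, edgeR) and -0.32 in CB (SE 0.11, adjusted p = 0.322, edgeR). Relb was likewise below all WT libraries, with a log2 change of -0.48 in CC (SE 0.13, adjusted p = 0.135, edgeR) and -0.24 in CB (SE 0.13, adjusted p = 0.470, edgeR). In all, 6 of 10 genes were lower without overlap in CC (Nfkb1, Nfkb2, Rela, Relb, Nfkbia and Nfkbib), where 17.4% of all genes were, and 4 in CB (Nfkb2, Rela, Relb and Nfkbib), where 16.4% were. Nfkbib had the lowest mean CPM of the inhibitors in each group, not scaled to gene length. Its log2 change was -0.38 in CC (95% interval -0.74 to -0.01) and -0.50 in CB (95% interval -0.85 to -0.14). Rel was the 1 gene with an estimate above 0, at 0.18 in CC (95% interval -0.16 to 0.52) and 0.23 in CB (95% interval -0.11 to 0.56), and its HOMO and WT libraries overlapped in both fractions. For Nfkbid the intervals reached from -1.16 to 0.61 in CC and from -1.35 to 0.43 in CB, wide enough to hold a change in either direction. In each fraction the HOMO libraries had a lower rho with GC content than all WT libraries, and Rel and Nfkb1 have a GC content of 42.5% and 44.9%, against 50.1% to 59.4% for the other 8 genes. With a correction for GC content, Nfkb2 had -0.18 in CC and -0.05 in CB, Relb had -0.27 in CC and -0.02 in CB, and the estimate of Rela was above 0, at 0.09 in CC and 0.01 in CB. Rel then had -0.0042 in CC, where its sign turned, and 0.06 in CB, and Nfkb1 had -0.23 in CC and -0.18 in CB.

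Which WT libraries the HOMO libraries were set against changed the picture. Nfkbid in WT number 3 was 1.77 times the mean of WT numbers 1 and 2 in CC and 2.14 times in CB, Nfkbiz 1.48 and 2.36 times, and Nfkbia 1.06 and 1.83 times. Set against WT number 3 alone, both HOMO libraries were lower for all 10 genes in CC, where 37.6% of all genes were, and for 8 in CB, where 37.2% were. Set against WT numbers 1 and 2, both HOMO libraries were lower for 6 genes in CC (31.1% of all genes) and 5 in CB (37.3%), and higher for Rel in both (29.4% and 33.5%).

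Without both libraries of WT number 3, 4 genes passed in CC, where 31.3% of all genes passed, and 4 in CB, where 30.4% did. In CC these were Nfkb2 (log2 -0.49), Relb (-0.50), Nfkbia (-0.30) and Rel (0.34), and in CB Nfkb2 (-0.27), Rela (-0.35), Nfkbib (-0.55) and Rel (0.40), with adjusted p-values of 0.000316 to 0.0161 (edgeR). With WT number 3 as the sole WT library, which is then assumed to vary like the other groups, 3 genes passed in CC (3.95% of all genes) and 4 in CB (4.07%). Those were Nfkbia (log2 -0.40), Nfkbie (-0.50) and Nfkbid (-0.75) in CC, and Nfkb2 (-0.37), Nfkbia (-0.71), Nfkbie (-0.39) and Nfkbid (-1.09) in CB, all lower in HOMO (adjusted p 0.000182 to 0.0285, edgeR). Nfkb2, Relb and Nfkbib were below 0 in all 22 alternative settings in each fraction. The sign of Nfkbid and of Rel depended on the WT libraries used in both fractions, as did that of Nfkbia and Nfkbiz in CB and of Nfkbie in CC.

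**Figure D5:**
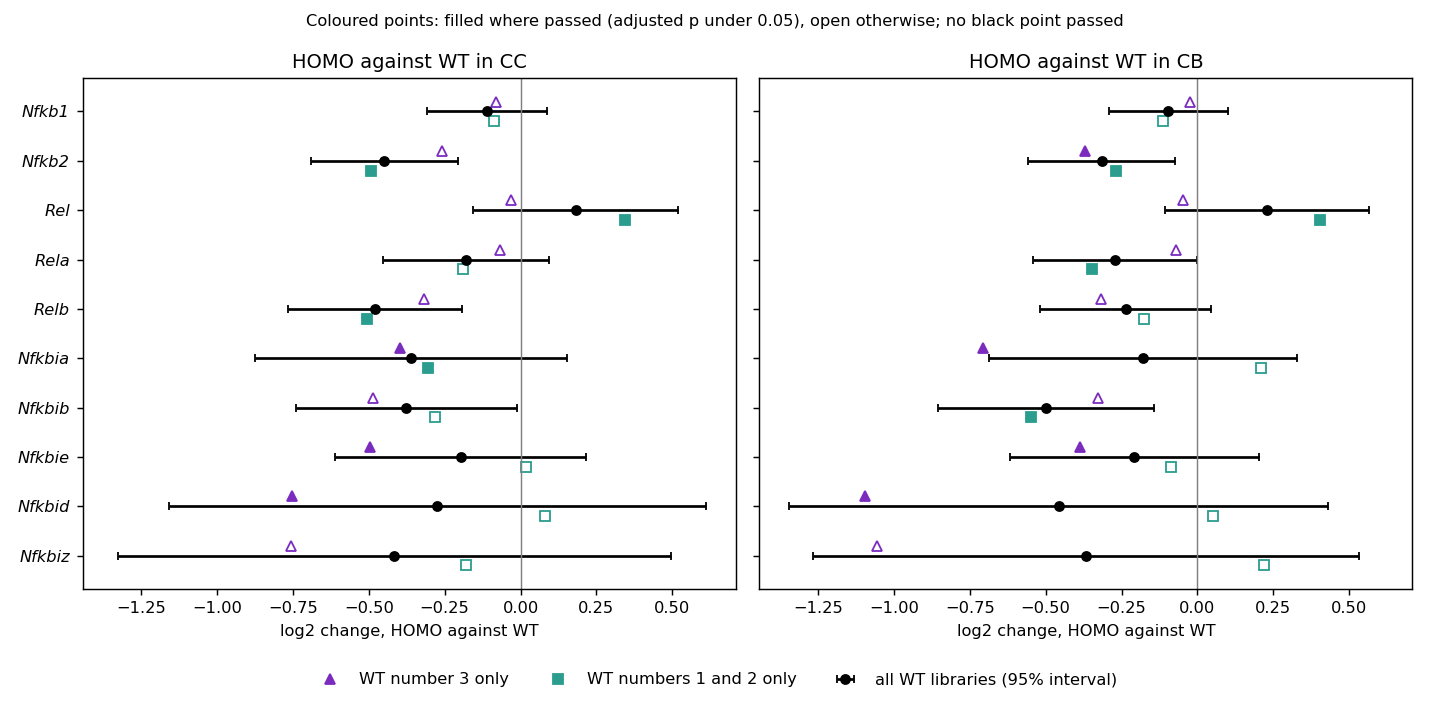
Log2 change of HOMO against WT (horizontal axis) of each gene in CC and CB, with all WT libraries (black, 95% interval), with WT number 3 only and with WT numbers 1 and 2 only; coloured points are filled where the adjusted p passed 0.05. Nfkb1, Nfkb2, Rela, Relb and Nfkbib lie left of 0 in all 3 versions in both fractions. Rel and Nfkbid change side in both fractions, Nfkbia and Nfkbiz in CB, and Nfkbie in CC.

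The difference between the genotypes in the change from CB to CC was tested as an interaction, and none of the 10 genes passed, where 0% of all genes did (edgeR). At an unadjusted p under 0.05 there were 0 of the 10 genes and 2.62% of all genes, and DESeq2 and limma-voom with the random replicate block called 0 as well. The interaction was -0.13 for Nfkb2 (95% interval -0.47 to 0.21) and -0.24 for Relb (95% interval -0.64 to 0.15) on the log2 scale. For Nfkbid the interval ran from -1.06 to 1.43, so that changes of over 2-fold between the genotypes lie inside it. The calls in WT that were absent in HOMO are therefore not shown to differ between genotypes.

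The other genes of the pathway were described by lists of their roles. The lists were chosen with earlier results of these data known, so their excess over all genes is no independent test. Their counts are read beside the shares of all genes tested, of which 2.46% rose and 2.98% fell in HOMO CC, and 11.6% rose and 12.3% fell in WT CC. Of 15 receptor genes, 2 rose in HOMO CC and none fell, and 6 rose in WT CC and none fell. Among the genes that rose in WT, Ltbr, Tnfrsf1a and Il1r1 had low levels. They averaged 0.935, 1.98 and 3.498 CPM in WT CC, against 0.0394, 0.132 and 1.61 CPM in WT CB. In HOMO CC they averaged 0.0305, 0.566 and 3.28 CPM. The macrophage sums given above were highest in WT CC, and their part in these calls was not tested. Cd40, the receptor for T cell help, had 68.8 and 62.1 CPM in HOMO CC, against 29.8 and 30.2 CPM in HOMO CB, and 79.8, 88.3 and 72.4 CPM in WT CC, against 37.7, 46.4 and 34.1 CPM in WT CB. It rose by a log2 of 1.12 in HOMO (SE 0.15, adjusted p = 0.00195, edgeR) and 1.03 in WT (SE 0.12, adjusted p = 0.000306, edgeR). Tnfrsf8, which encodes the CD30 receptor, averaged 8.81 CPM in HOMO CC and 1.33 CPM in HOMO CB, and 9.91 CPM in WT CC and 1.01 CPM in WT CB, and rose in both genotypes (log2 2.76 and 3.25). Tlr7, the receptor for single-stranded RNA, rose in WT (log2 2.60, adjusted p = 0.0101, edgeR), and in HOMO had 2.50 (adjusted p = 0.0773, edgeR). Its levels were low, at 4.52 and 5.50 CPM in HOMO CC, against 0.879 and 0.878 CPM in HOMO CB. In WT they were 8.30, 1.92 and 9.90 CPM in CC, against 0.630, 0.653 and 1.88 CPM in CB. WT CC number 2 was thus close to WT CB number 3.

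Of 28 adaptor and kinase genes, 1 rose and 1 fell in HOMO CC, and 4 rose and 5 fell in WT CC, shares near those of all genes. Ikbke, an IkB kinase relative, rose to 20.2 ± 1.79 CPM in HOMO CC, against 5.32 ± 0.394 CPM in HOMO CB, and to 29.0 ± 2.45 CPM in WT CC, against 7.83 ± 1.23 CPM in WT CB (log2 1.93 and 1.88). The signalling adaptor Traf5 fell in both genotypes (log2 -0.45 in HOMO and -0.47 in WT), while Traf6 fell in WT (-0.54) and had -0.38 in HOMO, which did not pass. Of 19 negative regulators, 4 rose and 1 fell in HOMO CC, and 5 rose and 3 fell in WT CC, where the share that fell was near that of all genes (12.3%). Traf3, which restrains the alternative route, rose by a log2 of 0.44 in HOMO and 0.68 in WT, and Birc3, which acts with it, by 0.63 and 0.56. Tnip2, the gene of an A20-binding protein, rose by 1.05 in HOMO and 1.08 in WT.

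Of 5 genes of the ubiquitin ligase that marks inhibitors for destruction, Btrc, a substrate receptor, rose in WT (log2 0.36). The other 4 fell, among them Fbxw11 (-0.31), also a substrate receptor, Cul1 (-0.38) and Skp1a (-0.69). Btrc averaged 21.5 CPM in WT CC, against 16.8 CPM in WT CB, and Fbxw11 56.9 CPM, against 70.7 CPM. Cul1 had 94.7, 89.8 and 121 CPM in WT CC, against 133, 136 and 128 CPM in WT CB. Skp1a had 38.0, 29.2 and 56.8 CPM in WT CC, against 64.0, 68.8 and 65.9 CPM in WT CB. For both genes WT CC number 3 was nearest to the CB levels, and the part of GC content was not tested. In HOMO the log2 changes were 0.36 for Btrc (adjusted p = 0.151), -0.30 for Fbxw11 (0.211), -0.08 for Cul1 (0.815) and -0.17 for Skp1a (0.776). They did not pass with edgeR. Bcl3, an ankyrin-repeat relative of the inhibitors, rose by a log2 of 1.62 in HOMO and 1.27 in WT. Of 38 target genes tested of 40 listed, 16 rose and 2 fell in HOMO CC, and 19 rose and 3 fell in WT CC, beside 2.46% and 2.98% of all genes in HOMO and 11.6% and 12.3% in WT. The median of these targets was 0.71 in HOMO and 0.73 in WT, beside -0.010 and 0.0097 over all genes. Since the list was chosen with earlier results known, these counts and medians describe it and do not test it. Cd83, an activation marker of light zone cells, rose by 1.45 in HOMO and 1.31 in WT, the growth regulator Myc by 1.18 and 1.13, and Il4i1, an amino acid oxidase, by 2.08 and 2.29. Pim1 and Cd44 fell in both genotypes, and Gadd45b in WT. Of the 100 genes of all lists that were tested, none passed between HOMO and WT in either fraction with edgeR, and 21 in CC and 21 in CB had an unadjusted p under 0.05, beside 18.9% and 12.5% of all genes. DESeq2 called 6 of them in CC and 1 in CB, beside 4.92% and 1.67% of all genes, and limma-voom called 0 in both.

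Genes with the most similar pattern were sought by Pearson's r of log2 CPM over the 10 libraries among 9011 genes with a mean of at least 5 CPM. The libraries share 2 fractions and differ in GC bias, so r describes the pattern over these libraries and is given without a test. Icam1, an adhesion molecule gene, was the most similar to both Nfkb2 (r = 0.997) and Relb (r = 0.992). Next to Nfkb2 came Jade2 (0.993) and Sh3bp2 (0.992), and next to Relb Ksr1 (0.991) and Nab2 (0.987). Nfkb1 was most like Derl3 (0.991), Cd40 (0.990) and Tspan32 (0.986). Rel was most like Klf10 (0.982), Klf12 (0.965) and Prkab2 (0.964), and Nfkbia most like Kdm6b (0.994), P2rx4 (0.978) and Hk2 (0.973). Between family members r was highest for Nfkb2 and Relb (0.995), followed by Nfkb1 and Nfkb2 (0.974) and Nfkbie and Nfkbid (0.970), and lowest for Rel and Rela (-0.060).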

How the data were processed

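The authors deposited raw read counts as whole numbers, with a length for each gene. The mm10 genome, STAR, featureCounts, Subread, FastQC and R 4.2.1 were used, per the submitters' processing notes. Neither the strand setting nor the annotation is stated there, so Nfkbib (which overlaps Sirt2), Nfkb2 (AC114539.1 and Psd) and Nfkb1 (Gm43430) have less certain counts. HOMO columns are numbered 2 and 3 but HOMO titles 1 and 2, so they were assigned by group only. The family members and lists were chosen with earlier results of these data known. Gene symbols were matched by identifier, 54587 with and 567 without the version, and 267 had none.

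Genes were filtered with filterByExpr (minimum count 10, minimum total 15) and TMM-scaled. A model of 4 group means over all 10 libraries was tested two-sided with the robust quasi-likelihood F-test of edgeR 4.0.16 in R 4.3.3, with Benjamini-Hochberg adjustment over 16596 genes and a threshold of 0.05. Each SE is the log2 change divided by the root of F. The common biological coefficient of variation was 23.1%. Alternatives used DESeq2 1.42.0, limma 3.58.1, other filters and scalings, an offset for GC content, libraries left out and a replicate block. The replicate block was made of WT numbers only, and HOMO libraries were left unpaired. Deviations from group means of same-numbered WT libraries correlated across 8795 genes with r = 0.303, 0.427 and 0.436 (-0.411 to 0.277 for different numbers), so the WT numbers were taken to pair them, from the data and not from a label. Libraries of a group differed by more than sampling noise (chi-square per degree of freedom 4.14 to 80.7).

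The text names all 10 members, Pbrm1, up to 3 genes per list with the smallest p for CC against CB in WT, and the 3 genes most like 5 members; other names were chosen after their values were seen.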

Additional observations from a re-analysis of the deposited data

How the results depend on the processing

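Over the 24 alternatives tried for each comparison of CC with CB, no estimate of the 10 genes changed sign, and Nfkb2 and Relb passed in all of them. The number of genes that passed in WT, 7, was 3 without WT number 2 and 5 to 8 with single libraries left out. With the WT number as a fixed replicate block it was 9, as a random block 9, and with the fixed block and the GC content offset 8. DESeq2, no filter on low counts, and leaving out WT number 3 each gave 8. The GC content offset alone and scaling without TMM factors each gave 6. Leaving out WT number 1 and using only the groups compared each gave 5. In HOMO it was 3, and it was 6 with DESeq2, 6 with no filter on low counts, 9 with only the groups compared, 10 without WT number 3, 9 without WT numbers 1 and 2, 7 with the WT number as a fixed replicate block, 6 with that block and the GC content offset, 4 with the WT number as a random replicate block, and 2 to 5 with single libraries left out. For HOMO against WT in CC, 0 genes passed, against 2 with DESeq2, 2 with no filter on low counts, 4 without WT number 3, 3 without WT numbers 1 and 2, and 0 to 2 with single libraries left out. In CB, 0 passed, against 1 with no filter on low counts, 4 without WT number 3, 4 without WT numbers 1 and 2, and 0 to 2 with single libraries left out. For the interaction, 0 passed, against 1 (Nfkbia) without WT number 3, and 0 with each single library left out. All these counts are read beside the share of all genes that passed, which moved with the setting. For CC against CB in WT the share was 23.9% at first, 7.62% without WT number 2 and 46% without WT number 3. In HOMO it was 5.45% at first, 10% with DESeq2, 30.4% with only the groups compared and 23% without WT number 3. For the interaction without WT number 3 it was 8.98%. With the random replicate block, Nfkbib (adjusted p = 0.0322) and Nfkbiz (0.0165) also passed in WT, and Nfkbid (0.0401) in HOMO (limma-voom). Beyond the calls named here or beside the results above, the replicate block changed none among the 10 genes. In HOMO against WT, 8 of 220 estimates in each fraction changed sign, none of them while passing. Depth was at least 9954006 reads per library, and the widest intervals were those of Nfkbid and Nfkbiz, whose WT libraries spread most relative to their means. The cause of that spread was not tested.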

Other observations

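Rel made up 39.7% and 42% of the summed level per kilobase of the 5 subunit genes in HOMO CC, against 29.6%, 30.9% and 38.4% in WT CC. In CB its share was 46.2% and 44.7% in HOMO, against 36.3%, 33.3% and 43.5% in WT. Both HOMO libraries were above all 3 WT libraries in each fraction, and WT number 3 was the WT library nearest to them. The ratio of Relb to Rel per kilobase was 0.241 and 0.186 in HOMO CC, against 0.407, 0.369 and 0.262 in WT CC. In CB this ratio was 0.128 and 0.139 in HOMO, against 0.180, 0.219 and 0.161 in WT. Here too the HOMO libraries did not overlap with the WT libraries, on the lower side. Rel has the lowest GC content of the 10 genes (42.5%), and the libraries differ in their relation to GC content as given above. With a correction for GC content, the log2 change of HOMO against WT was -0.27 for Relb and -0.0042 for Rel in CC. In CB it was -0.02 for Relb and 0.06 for Rel. The shares and ratios themselves were not corrected, and the part of GC content in them was not tested. Nfkbia made up 38.4% and 37.3% of the summed inhibitor level in HOMO CC, against 46.2%, 39.5% and 34.1% in WT CC, where the groups overlapped.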
